A study of Mus musculus with 6 samples.

Results

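Ribosome biogenesis factors are the proteins that make ribosomal RNA and assemble it into ribosomal subunits. Their transcripts are described here in mouse bone marrow cells cultured with and without midkine. A list of 47 such genes was matched by gene symbol to the 15443 symbols of the table, and all 47 were found. All 47 also passed the filter on low values, a mean of at least 5 normalized counts over the libraries, which left 13543 genes. The 3 midkine libraries (replicates 3, 4 and 5) were cultures of marrow from wild-type mice (strain C57BL/6J), kept for 3 days with FLT3LG at 50 ng/ml and recombinant human midkine at 10 ng/ml. The 3 control libraries (replicates 1, 2 and 4) were the same kind of culture with FLT3LG at 50 ng/ml and no midkine. FLT3LG, the cytokine that drives dendritic cells (DCs) to grow from marrow progenitors, was thus present in both groups, and midkine, a heparin-binding growth factor that cells secrete, was added to 1 of them. The labels give no mouse age. Nor do they tell if each replicate was its own mouse or culture, and the spread behind every p-value may therefore be technical.

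Ribosome production begins in the nucleolus, where RNA polymerase I copies the ribosomal DNA into a long precursor. Small nucleolar ribonucleoproteins (snoRNPs) modify the precursor: box C/D particles add methyl groups to ribose and box H/ACA particles turn uridine into pseudouridine. A large assembly called the small subunit processome then folds and cuts the part that becomes the small subunit, while other factors, helicases and GTP-binding proteins build the large subunit. The pathway is busiest in growing and dividing cells, such as marrow progenitors, and the transcription factor MYC is known to raise many of its genes.

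Values are normalized counts of reads near the 3′ end of each mRNA, not scaled to gene length, so levels are compared between libraries and not between genes. The libraries held 5985684 to 7233960 reads. Midkine 5 stood apart from the other 5 libraries: its Pearson correlations with them across genes were 0.921 to 0.941, against 0.966 to 0.985 among the others. The share of reads from mitochondrial ribosomal RNA was 0.377% there, while it was 4.12% in midkine 3, 4.69% in midkine 4 and 4.91% to 6.16% among controls. Where the call on a gene depends on midkine 5, the values with and without that library are both given. All listed markers of neutrophils, of monocytes and macrophages and of conventional DCs had reads in every library, and counts over these and other marker lists are given near the end.

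Most ribosome biogenesis factors had lower transcript levels in midkine 3 and 4 than in the controls, by small amounts. In midkine 3, 40 of the 47 genes lay below their control mean (85.1%, against 49.6% of all genes tested), and in midkine 4 41 did (87.2%, against 49.8%). In midkine 5 26 did (55.3%, against 49.4%), near the share of all genes. In control 1, 2 and 4, each part of that mean, 22, 33 and 19 did, against 6696, 6620 and 6707 of the 13543 genes tested. Control 2 thus also held most of the 47 below the mean, with a median difference of −0.0554. The median difference from the control mean on the log2(normalized count + 1) scale was −0.195, −0.311 and −0.121 in midkine 3, 4 and 5, where the median over all genes tested was between 0.00207 and 0.0107. The 3 midkine values lay below all 3 control values for 17 of the 47 genes (36.2%), against 15.3% of all genes tested. They lay above all 3 control values for 1 gene, Imp4 (2.13%), against 15.5% of all genes tested. Without midkine 5, 29 of the 47 genes were lower without overlap (61.7%, against 23.8%) and 1 was higher, again Imp4 (against 23.8%). Summed over the 47 genes, the level was 26426, 23603 and 27331 normalized counts in midkine 3, 4 and 5, against 30807, 29800 and 30489 in control 1, 2 and 4. Without Npm1, the most abundant of them by counts, it was 19242, 17410 and 21841 in midkine libraries, against 22485, 21204 and 22578 in controls, where midkine 5 lay within the control range. In RNA from mixed cultures, fewer cells of a type and less RNA per cell cannot be told apart.

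With all 6 libraries, limma with Benjamini-Hochberg adjustment over the 13543 genes called 0 of the 47 lower and 0 higher, and 0.0% of all genes in either direction. At an unadjusted p under 0.05 it found 6 of them lower (12.8%, against 9.30% of all genes) and 1 higher (2.13%, against 10.4%). edgeR on recovered reads also called 0 of the 47, against 0.0295% of all genes lower and 0.0443% higher. DESeq2 called Nop56 and Dkc1 lower, against 1.86% of all genes with an adjusted p, and 0 of the 47 higher, against 3.72%. Without midkine 5, limma called 9 of the 47 lower (19.1%, against 8.52% of all genes tested) and 0 higher, against 9.92% of all genes. At an unadjusted p under 0.05 that fit found 21 lower (against 15.3% of all genes) and 1 higher, Imp4 (against 16.1%). The 9 called were Polr1b, Lyar, Nolc1, Nop56, Dkc1, Wdr43, Tsr1, Rrp1b and Gnl3. edgeR without midkine 5 called 8 of these 9 lower, all but Tsr1 (adjusted p = 0.0548), where 7.97% of all genes were lower, and 0 higher, against 10.5%. The median log2 fold change, midkine minus control, was −0.22 over the 47 genes with all 6 libraries and −0.23 without midkine 5.

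**Figure D1:**
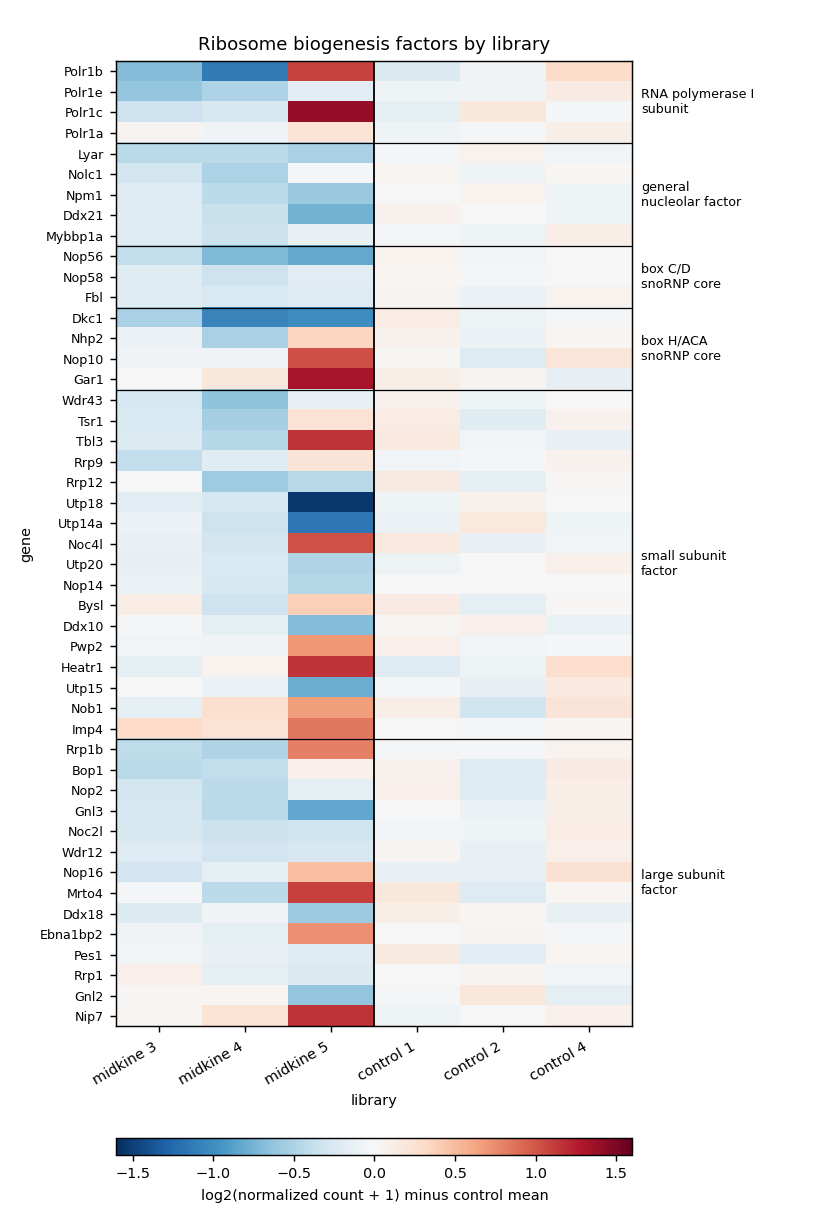
Each row is 1 of the 47 ribosome biogenesis factors, grouped by role, and each column a library, with colour for log2(normalized count + 1) minus the mean of the 3 controls. Midkine 3 and 4 are mostly blue (40 and 41 of 47 genes below the control mean), while midkine 5 holds both strong red and strong blue, from −1.54 for Utp18 to 1.41 for Polr1c.

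**Figure D2:**
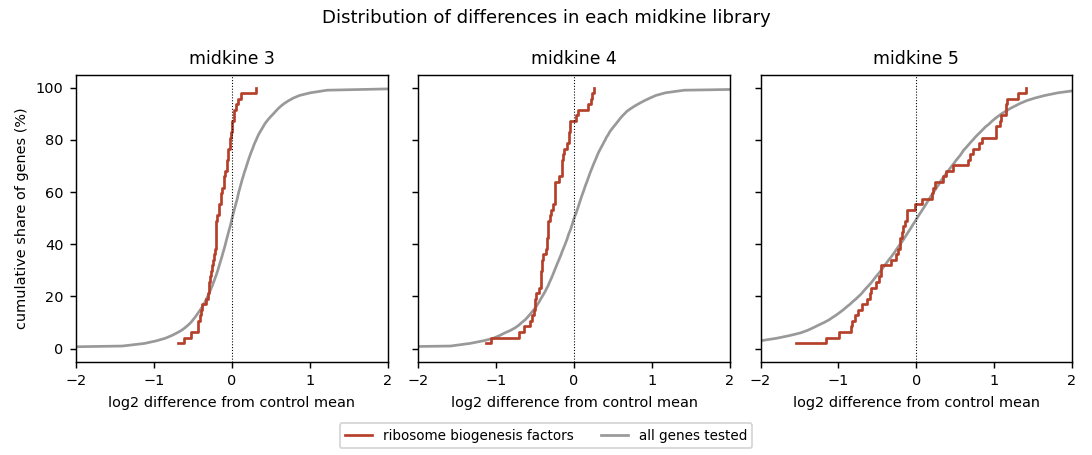
Cumulative share of genes (vertical axis, %) against the log2 difference from the control mean (horizontal axis) in each midkine library, for the 47 ribosome biogenesis factors and for all 13543 genes tested. Above its lower tail, the curve of the factors lies left of that of all genes in midkine 3 and 4, and it runs close to that of all genes in midkine 5, where 55.3% of the factors and 49.4% of all genes lie below 0.

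Midkine 5 spread the genes widely. The interquartile range of the 47 log2 differences was 0.24 in midkine 3, 0.29 in midkine 4 and 1.21 in midkine 5, against 0.49, 0.63 and 1.17 over all genes tested. In midkine 5, 24 of the 47 genes lay below all 3 controls (51.1%, against 41.1% of all genes) and 20 lay above them (42.6%, against 41.8%). In midkine 3, 30 lay below (63.8%, against 32.4%) and 2 above (4.26%, against 32.1%). In midkine 4, 36 lay below (76.6%, against 35.4%) and 4 above (8.51%, against 35.8%). Midkine 3 and 4 thus held few genes above the controls. A difference of 1 or more on the log2 scale was reached in midkine 5 by 9 genes that were higher (19.1%, against 12.2% of all genes), namely Polr1b, Polr1c, Nop10, Gar1, Tbl3, Heatr1, Noc4l, Nip7 and Mrto4, and by 2 that were lower (against 13.4%), Utp14a and Utp18. In midkine 4 it was reached by Polr1b and Dkc1, both lower (against 4.45% of all genes), and by 0 that were higher (against 3.68%). In midkine 3 it was reached by 0 genes either way, against 2.79% of all genes lower and 2.05% higher.

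**Figure D3:**
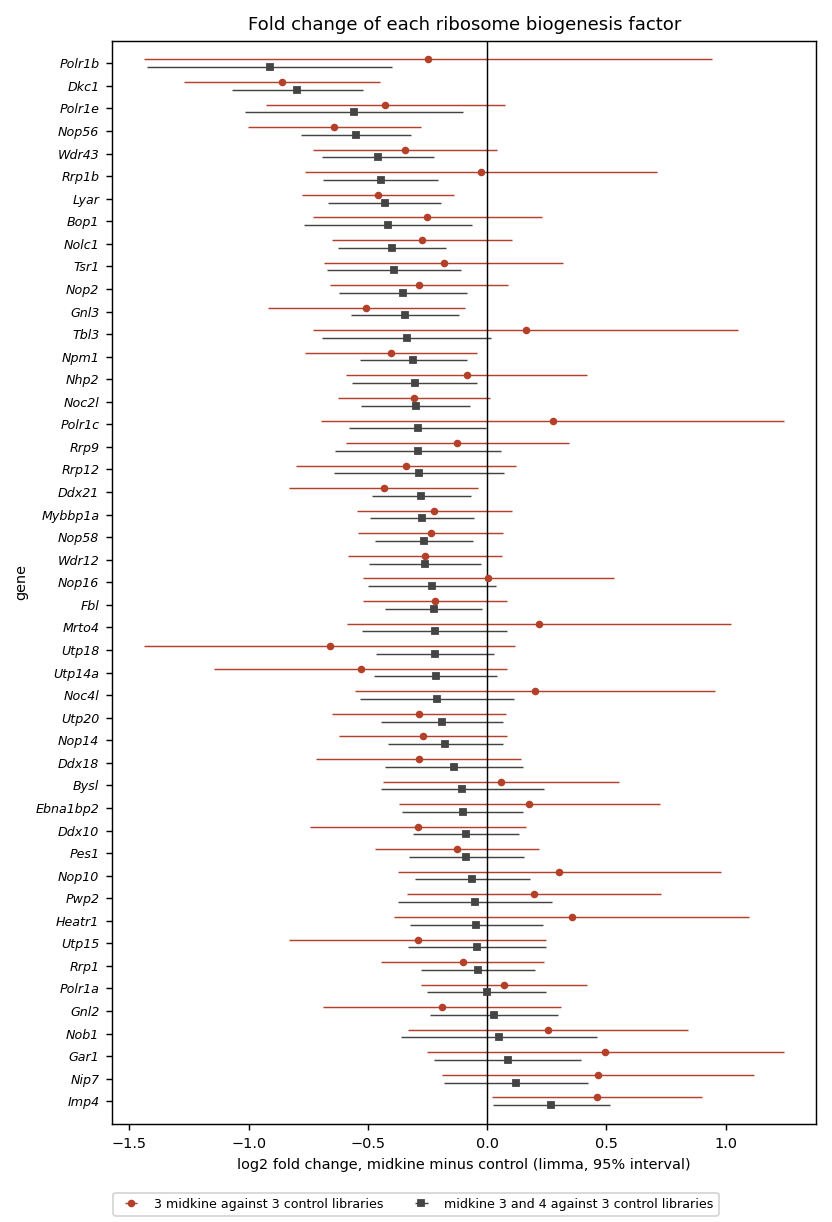
Log2 fold change of each gene (midkine minus control, limma) with its 95% interval, for 3 midkine against 3 control libraries and for midkine 3 and 4 against the same 3 controls. Intervals are wide for genes that midkine 5 moves, such as Polr1b (−1.44 to 0.94 with all 6 libraries), and 42 of 47 points lie below 0 without that library.

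The first step is ribosomal DNA transcription, and the 4 measured RNA polymerase I subunits were lower or near the controls in midkine 3 and 4. Polr1b, the second largest subunit, had 31.9, 23.2 and 112 normalized counts in midkine 3, 4 and 5, against 44.1, 50.1 and 64.1 in control 1, 2 and 4. Midkine 3 and 4 lay below all the controls and midkine 5 above them, and the lowest value rested on 22 reads. Without midkine 5 Polr1b fell, with a log2 fold change of −0.91 ± 0.24 (SE, limma, adjusted p = 0.0143). With all 6 libraries its value was −0.25 (adjusted p = 0.805). Polr1e, which forms part of a subcomplex that helps the polymerase start and move, had 32.9, 35.9 and 45.4 normalized counts in midkine libraries, against 48.2, 49.1 and 56.2 in controls. These groups did not overlap, but the gene passed in neither fit (adjusted p = 0.315 with all 6 libraries and 0.0825 without midkine 5, limma). Polr1c, a subunit shared with RNA polymerase III, had 163, 173 and 548 normalized counts in midkine libraries, against 187, 233 and 201 in controls. Its value in midkine 5 was the highest difference of all 47 genes in that library, at 1.41 on the log2 scale. Polr1a, the largest subunit, had 306, 285 and 345 normalized counts in midkine libraries, against 281, 291.5 and 317 in controls, and its groups overlapped (log2 fold change 0.07, 95% interval −0.28 to 0.42).

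The 5 general nucleolar proteins lay below their control mean in every midkine library, and 4 of the 5 did not overlap between the groups, as was so, with midkine lower, for 15.3% of all genes. Npm1 encodes nucleophosmin, an abundant nucleolar chaperone, and its gene spans chr11:33152287-33163206 (minus strand, GRCm38). It had 7184, 6192 and 5491 normalized counts in midkine 3, 4 and 5, against 8322, 8596 and 7911 in control 1, 2 and 4. All midkine values were below all control values, with means of 6289 ± 851 and 8276 ± 345 (SD, n = 3 each). Its log2 fold change was −0.40 (95% interval −0.76 to −0.04, adjusted p = 0.218, limma), and −0.31 without midkine 5 (adjusted p = 0.0504), just outside the threshold. Npm1 is known to have processed pseudogenes, and how reads that map to several places were counted is not given in the sources used here. Ddx21, an RNA helicase that couples polymerase I transcription to processing, had 1423, 1272 and 968 normalized counts in midkine libraries, against 1706, 1627 and 1557 in controls. It too did not overlap (log2 fold change −0.43, adjusted p = 0.226, limma, and −0.28, adjusted p = 0.0612, without midkine 5).

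Lyar, a nucleolar zinc finger protein of growing cells, varied little within each group. It had 274, 273 and 257 normalized counts in midkine 3, 4 and 5, against 364, 384 and 359 in control 1, 2 and 4. The midkine libraries differed from each other by less than they did from any control. The log2 fold change was −0.46 ± 0.14 (SE, adjusted p = 0.149, limma) with all 6 libraries, and Lyar fell by 0.43 on the log2 scale without midkine 5 (adjusted p = 0.0128). Nolc1, a chaperone of snoRNPs also called Nopp140, had 531, 461 and 644.5 normalized counts in midkine libraries, against 668, 624 and 670 in controls. Midkine 5 lay within the control range here. Nolc1 fell without midkine 5 (log2 fold change −0.40, adjusted p = 0.0145, limma), against −0.27 with all 6 libraries (adjusted p = 0.377). Mybbp1a, a nucleolar protein that binds the transcription factor MYB, had 920, 834 and 977 normalized counts in midkine libraries, against 1040, 998 and 1145 in controls, and passed in neither fit.

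The 3 listed core proteins of box C/D snoRNPs, which are a part of that core, all lay below the controls in every midkine library. None of the 3 overlapped, as was so, with midkine lower, for 15.3% of all genes. Nop56, a scaffold protein of these particles, is encoded at chr2:130274430-130279313 (plus strand, GRCm38). It had 749, 598.5 and 555 normalized counts in midkine 3, 4 and 5, against 1020, 948 and 976 in control 1, 2 and 4. Every midkine value was below every control value, with means of 634 ± 102 and 981 ± 36.0 (SD, n = 3 each). The log2 fold change was −0.64 ± 0.16 (SE, limma, adjusted p = 0.106). Nop56 fell by 0.55 on the log2 scale without midkine 5 (adjusted p = 0.00202), and DESeq2 called it lower with all 6 libraries (adjusted p = 0.0297). Nop58, its partner scaffold, had 907, 827 and 919 normalized counts in midkine libraries, against 1063, 1020 and 1040 in controls. Fbl encodes fibrillarin, the enzyme that methylates the ribose, and had 1922, 1856 and 1913 normalized counts in midkine libraries, against 2264, 2068 and 2291 in controls. The fold changes of Nop58 and Fbl were small, −0.24 and −0.22 on the log2 scale, and neither passed with or without midkine 5.

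**Figure D4:**
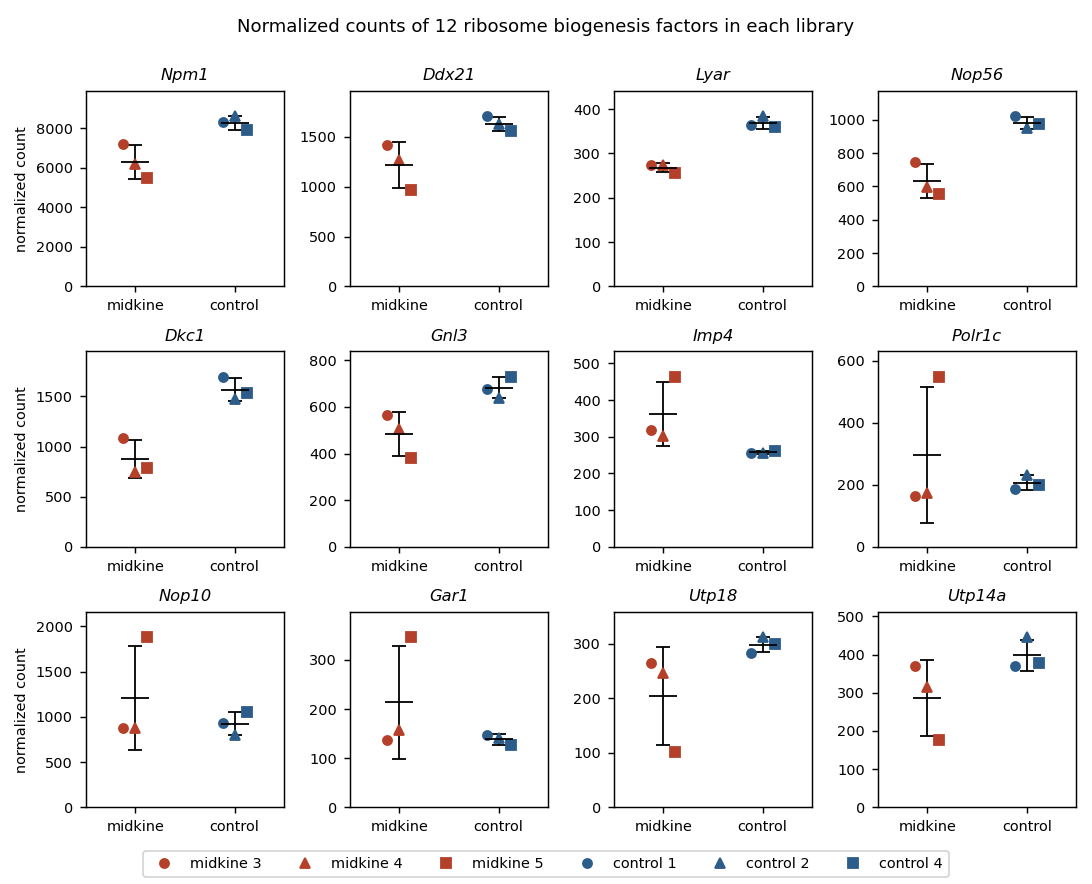
Normalized counts (vertical axis, from 0) of 12 ribosome biogenesis factors in the 3 midkine and 3 control libraries, with bars for the mean and SD and a symbol for each replicate. Dkc1, Nop56, Lyar, Npm1, Ddx21 and Gnl3 are lower in all 3 midkine libraries, and Imp4 is higher in all 3. Polr1c, Nop10 and Gar1 lie far above the controls only in midkine 5, and Polr1c lies below them in midkine 3 and 4.

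The 4 core proteins of box H/ACA snoRNPs did not move together over all 3 midkine libraries. All 4 lay below their control mean in midkine 3 and 3 did in midkine 4, but only 1 did in midkine 5. Of all genes, 49.6%, 49.8% and 49.4% did. Dkc1 encodes dyskerin, the pseudouridine synthase, which is also a part of telomerase, and its gene spans chrX:75095854-75109777 (plus strand, GRCm38). It had 1089, 744 and 787 normalized counts in midkine 3, 4 and 5, against 1694, 1476 and 1531 in control 1, 2 and 4. This was the largest fold change among the 47 genes with all 6 libraries, −0.86 ± 0.18 on the log2 scale (SE, limma, adjusted p = 0.0871). Dkc1 fell by 0.80 on the log2 scale without midkine 5 (adjusted p = 0.000445), and DESeq2 called it lower with all 6 libraries (adjusted p = 0.00584). Its partners passed in neither limma fit. Nop10, the smallest subunit, had 881, 880 and 1878 normalized counts in midkine libraries, against 928, 795 and 1053 in controls. Gar1, a core subunit that binds dyskerin, had 137, 157 and 346 normalized counts in midkine libraries, against 148, 142 and 126 in controls. For both, midkine 3 and 4 lay in or near the control range and midkine 5 lay far above it. Nhp2, an RNA-binding subunit, had 508, 379 and 690 normalized counts in midkine libraries, against 567, 506 and 553 in controls. Its groups overlapped (log2 fold change −0.09, 95% interval −0.59 to 0.42), and its value was −0.30 without midkine 5 (adjusted p = 0.101, limma).

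Of the 17 small subunit factors, 5 were lower in all 3 midkine libraries than in any control (29.4%, against 15.3% of all genes), 1 was higher (5.88%, against 15.5%), and 11 overlapped. Wdr43, a processome protein named Utp5 in yeast, had 1039, 809 and 1158 normalized counts in midkine 3, 4 and 5, against 1325, 1206 and 1250 in control 1, 2 and 4. The 3 midkine libraries lay below every control, with midkine 5 nearest to them. Wdr43 fell by 0.46 on the log2 scale without midkine 5 (adjusted p = 0.00828, limma), against −0.35 with all 6 libraries (adjusted p = 0.297). Tsr1, which acts late, as the small subunit matures in the cytoplasm, had 263, 215 and 369 normalized counts in midkine libraries, against 341, 274 and 327 in controls. It fell without midkine 5 (log2 fold change −0.39, adjusted p = 0.0488, limma), which itself lay above the controls, and its value was −0.18 with all 6 libraries (adjusted p = 0.655). Imp4, which helps the processome's guide RNA pair with the precursor, was the 1 gene of the 47 above all controls in every midkine library. It had 319, 303 and 463 normalized counts in midkine libraries, against 256, 255 and 262 in controls, and passed in neither fit (log2 fold change 0.46, adjusted p = 0.239 with all 6 libraries, limma, and 0.27, adjusted p = 0.119, without midkine 5).

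Utp18, Utp14a, Utp20 and Nop14, further processome proteins, also did not overlap between the groups, and midkine 5 was the lowest library for each. Utp18 had 266, 247 and 102 normalized counts in midkine 3, 4 and 5, against 284, 312 and 300 in control 1, 2 and 4. Utp14a had 370, 315 and 177 normalized counts in midkine libraries, against 371, 445 and 378 in controls. These 4 genes passed in neither fit (limma, smallest adjusted p = 0.217, for Utp18 without midkine 5). Tbl3, Heatr1, Noc4l and Pwp2, also processome proteins, showed the opposite in midkine 5, which lay above all controls. Tbl3 had 88.0, 74.95 and 231.5 normalized counts in midkine libraries, against 115, 100.2 and 94.7 in controls. Heatr1, named Utp10 in yeast, had 448, 513 and 1100 normalized counts in midkine libraries, against 430, 469 and 599.6 in controls. Utp15, Rrp9, Rrp12, Bysl, Nob1 and Ddx10 overlapped as well, with log2 fold changes from −0.34 for Rrp12 to 0.25 for Nob1, the nuclease that makes the last cut of the small subunit RNA, and none passed.

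Promoters of 4 of these small subunit genes are shown because they hold the sequence CACGTG, the E-box that MYC and its partner MAX can bind, and because Wdr43 and Tsr1 fell, Utp18 was low in every midkine library and Imp4 was high in every one. Utp20 also holds CACGTG and was low in every midkine library, but its promoter is not shown. The sequences are from RefSeq (GRCm38.p6), run from 250 bases before to 50 after the gene start in the direction of the gene. Capitals mark CACGTG on either strand, and also a motif of ETS transcription factors, CCGGAAG, likewise on either strand. Wdr43 is chr17:71615965-71616264 on the plus strand, Tsr1 is chr11:74897830-74898129 on the plus strand, Utp18 is chr11:93885717-93886016 on the minus strand and Imp4 is chr1:34439579-34439878 on the plus strand.
Wdr43: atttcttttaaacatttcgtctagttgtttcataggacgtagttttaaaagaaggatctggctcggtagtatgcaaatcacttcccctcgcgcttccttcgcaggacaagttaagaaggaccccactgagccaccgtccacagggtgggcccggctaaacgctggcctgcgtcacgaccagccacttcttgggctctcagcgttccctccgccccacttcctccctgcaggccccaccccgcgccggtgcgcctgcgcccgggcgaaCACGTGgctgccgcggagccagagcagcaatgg
Tsr1: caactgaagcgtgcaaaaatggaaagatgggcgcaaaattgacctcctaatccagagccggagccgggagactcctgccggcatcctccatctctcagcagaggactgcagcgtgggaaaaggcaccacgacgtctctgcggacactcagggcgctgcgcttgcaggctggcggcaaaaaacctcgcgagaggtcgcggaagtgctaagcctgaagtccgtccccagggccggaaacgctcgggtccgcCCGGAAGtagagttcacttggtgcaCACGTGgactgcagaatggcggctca
Utp18: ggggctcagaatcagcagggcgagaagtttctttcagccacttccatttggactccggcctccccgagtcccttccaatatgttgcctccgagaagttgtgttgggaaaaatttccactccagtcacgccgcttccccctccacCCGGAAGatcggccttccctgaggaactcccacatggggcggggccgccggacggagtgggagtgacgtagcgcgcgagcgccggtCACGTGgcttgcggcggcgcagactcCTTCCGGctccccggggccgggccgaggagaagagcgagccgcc
Imp4: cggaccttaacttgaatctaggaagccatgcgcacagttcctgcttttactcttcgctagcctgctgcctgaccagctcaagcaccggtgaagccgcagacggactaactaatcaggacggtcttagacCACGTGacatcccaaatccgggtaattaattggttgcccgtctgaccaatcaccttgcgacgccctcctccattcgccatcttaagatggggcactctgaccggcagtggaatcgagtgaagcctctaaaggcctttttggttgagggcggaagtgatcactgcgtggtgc
CACGTG begins 17 bases after the gene start in Wdr43 and 24 after it in Tsr1, and lies upstream in Utp18 (base −20) and Imp4 (base −121). CCGGAAG occurs at the start of Tsr1 and in both orientations in Utp18.

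A promoter was found for 41 of the 47 genes. Bop1, Fbl, Gnl2, Npm1, Rrp12 and Tbl3 had none in that table. CACGTG, searched on both strands, was in the promoters of 8 of the 41 genes (19.5%), against 11.9% of the 9582 tested genes with a promoter and 8.09% of all 27025 genes of the table. The 8 were Mybbp1a, Utp18, Utp20, Wdr43, Imp4, Tsr1, Pes1 and Nop2. CCGGAAG was in 14 of the 41 (34.1%), against 20.7% of tested genes and 9.93% of all genes. Where a promoter held both motifs, they shared no base. Of the 8 genes with CACGTG, 4 did not overlap between the groups and were lower, with a median log2 fold change of −0.25, and of the 33 without it 11 were, with a median of −0.125, where 15.3% of all genes were. Split by CCGGAAG the order was the other way, with 3 of the 14 genes that hold it (median −0.135) and 12 of the 27 that do not (median −0.237). Without midkine 5, limma called 2 of the 8 genes with CACGTG lower and 7 of the 33 without it, and 2 of the 14 with CCGGAAG and 7 of the 27 without it, against 8.52% of all genes. Nothing particular to either motif is read from these counts. Dkc1, Nop56, Lyar and Gnl3 hold neither motif in this window, which says only that those letters are not there.

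Of the 14 large subunit factors, 3 were lower in every midkine library than in any control and 11 overlapped. That share, 21.4%, was near the 15.3% of all genes, so the count says nothing particular of these factors. Gnl3 encodes nucleostemin, a GTP-binding nucleolar protein abundant in stem cells. It had 567.5, 507 and 382 normalized counts in midkine 3, 4 and 5, against 679, 638 and 729 in control 1, 2 and 4. Gnl3 fell by 0.34 on the log2 scale without midkine 5 (adjusted p = 0.0324, limma), against −0.51 ± 0.18 (SE) with all 6 libraries (adjusted p = 0.191). Rrp1b, a nucleolar protein with a yeast relative in large subunit assembly, had 262, 248 and 611 normalized counts in midkine libraries, against 344, 340 and 360 in controls. Midkine 3 and 4 were below the controls and midkine 5 far above. Rrp1b fell without midkine 5 (log2 fold change −0.45, adjusted p = 0.0113, limma), and its value was −0.03 with all 6 libraries. Noc2l, whose yeast relative Noc2 takes part in moving large subunit precursors out of the nucleolus, had 488, 460 and 467 normalized counts in midkine libraries, against 566, 554 and 634 in controls (log2 fold change −0.31, adjusted p = 0.267, limma, and −0.30, adjusted p = 0.0623, without midkine 5). Its groups did not overlap.

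Bop1, Pes1 and Wdr12 form the PeBoW complex, which matures the large subunit RNA. Wdr12 had 396, 369.5 and 384 normalized counts in midkine 3, 4 and 5, against 473, 422 and 483 in control 1, 2 and 4, without overlap (log2 fold change −0.26, adjusted p = 0.339, limma, and −0.26, adjusted p = 0.116, without midkine 5). Bop1 had 79.3, 81.3 and 113 normalized counts in midkine libraries, against 113, 93.1 and 118 in controls. Pes1 had 541, 514 and 485 normalized counts in midkine libraries, against 620.5, 495 and 573 in controls. Only Wdr12 of the 3 was clear of the controls in each midkine library. Nip7 and Mrto4, assembly factors of the large subunit, were highest in midkine 5. Nip7 had 137, 156 and 300 normalized counts in midkine libraries, against 127, 135 and 142 in controls, and Gar1 aside it had the highest log2 fold change of the 47 with all 6 libraries, at 0.46 (95% interval −0.19 to 1.12). Mrto4 had 287, 217.5 and 620 normalized counts in midkine libraries, against 330, 252 and 297 in controls. The RNA methyltransferase Nop2, Nop16, Ebna1bp2, Rrp1, the helicase Ddx18 and the GTP-binding protein Gnl2 overlapped between the groups, with log2 fold changes from −0.29 for Ddx18 to 0.18 for Ebna1bp2.

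Several of the genes that fell carry snoRNAs in their introns. In mammals most snoRNAs are cut from introns of host transcripts, and the library kit primes on poly(A), so the snoRNAs themselves are not measured here. By the GENCODE M21 annotation on GRCm38, 6 of the 47 genes (12.8%) hold at least 1 snoRNA on their own strand, against 218 of 11575 tested protein-coding genes (1.88%). Nop56 holds 5, Snord57 and Snord110 among them, and Nop58 holds 4, with Snord11 and Snord70. Wdr43 holds 3, with Snord53 and Snord92, Gnl3 holds 3, with Snord19 and Snord69, Tsr1 holds 2, with Snord91a, and Dkc1 holds 1. Without midkine 5, limma called 5 of these 6 hosts lower, all but Nop58 (adjusted p = 0.0700), and 4 of the other 41 genes (9.76%). Over the 212 tested protein-coding hosts outside the 47, it called 25 lower (11.8%) and 8 higher (3.77%), against 8.72% and 11.2% of all tested protein-coding genes. Midkine values were lower without overlap, over all 6 libraries, for 5 of the 6 hosts and for 20.3% of the hosts outside the 47, against 14.6% of protein-coding genes. This grouping was chosen after the values of the genes were seen.

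In midkine 5 the differences varied with base composition. Over the 47 genes, the log2 difference of midkine 5 from the control mean had a Pearson correlation of 0.57 and a Spearman correlation of 0.55 with the GC content of the last 300 nt of the transcript. The points share 1 library and 1 control mean, and genes are not independent. The Spearman correlation was −0.08 in midkine 3 and −0.09 in midkine 4, and in midkine 5 it was 0.21 over 13476 tested genes. The 24 genes with a GC content of at least 46.0% had a median difference of −0.21, −0.34 and 0.37 in midkine 3, 4 and 5. The 23 genes below it had −0.17, −0.27 and −0.48. The 2 sets therefore lay on the same side of the controls in midkine 3 and 4 and on opposite sides in midkine 5. Over 87 other biogenesis factors the Spearman correlation in midkine 5 was 0.02. With the GC trend of each library removed, 18 of the 47 genes were lower without overlap (38.3%, against 15.6% of all genes) and 1 was higher (2.13%, against 15.6%). On these values limma called 0 of the 47, against 0.0445% of all genes lower and 0.0965% higher.

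**Figure D5:**
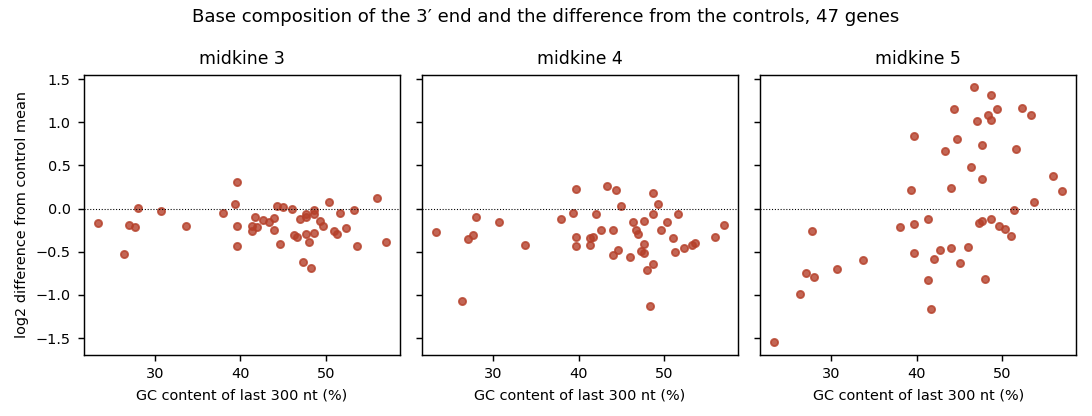
GC content of the last 300 nt of the longest coding transcript (horizontal axis, %) against the log2 difference from the control mean (vertical axis) for the 47 ribosome biogenesis factors in each midkine library. Midkine 3 and 4 show a flat cloud below 0, and in midkine 5 the AT-rich genes lie low and the GC-rich ones spread upward (Spearman correlation 0.55).

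Further genes of the pathway, a list of 90 symbols for 87 measured genes, were also lower with midkine more often than higher. With all 6 libraries limma called 0 of the 87. Without midkine 5 it called 13 lower (14.9%, against 8.52% of all genes) and 0 higher. The groups did not overlap for 30 genes that were lower (34.5%, against 15.3%) and for 6 that were higher (6.90%, against 15.5%), with a median log2 fold change of −0.14. The 6 with the smallest p were Surf6, Fcf1, Wdr46, Las1l, Ftsj3 and Rrp8, all lower. Surf6, a nucleolar matrix protein, had 121, 104 and 106 normalized counts in midkine 3, 4 and 5, against 173, 170 and 162 in control 1, 2 and 4, and fell by 0.58 on the log2 scale without midkine 5 (adjusted p = 0.00839, limma), against −0.61 with all 6 libraries (adjusted p = 0.119). Fcf1, a small subunit nuclease family protein, had 672, 609 and 542 normalized counts in midkine libraries, against 925, 854 and 796 in controls (log2 fold change −0.50, adjusted p = 0.144, limma, and −0.42, adjusted p = 0.00978, without midkine 5). Both were lower in all 3 midkine libraries. Ncl encodes nucleolin, a main protein of the nucleolus, and was picked after its values were seen. It had 7877, 6950 and 6610 normalized counts in midkine libraries, against 9187, 8732 and 10040 in controls, and fell by 0.33 on the log2 scale without midkine 5 (adjusted p = 0.0422, limma), against −0.38 with all 6 libraries (adjusted p = 0.221).

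Of 9 tested genes of the MYC network, limma called 0 with all 6 libraries. Without midkine 5 it called 3 lower and 2 higher, against 8.52% and 9.92% of all genes. Myc had 52.2, 53.8 and 42.7 normalized counts in midkine 3, 4 and 5, against 99.5, 101.2 and 68.05 in control 1, 2 and 4. It was lower in every midkine library, with a log2 fold change of −0.83 ± 0.23 (SE, adjusted p = 0.132, limma), and it fell by 0.72 on the log2 scale without midkine 5 (adjusted p = 0.0174). Mxd4, which competes with MYC for MAX, had 695, 761 and 982 normalized counts in midkine libraries, against 527, 532 and 540 in controls, and rose by 0.45 on the log2 scale without midkine 5 (adjusted p = 0.00545, limma), against 0.59 with all 6 libraries (adjusted p = 0.134). Max itself had 747, 934 and 1568 normalized counts in midkine libraries, against 700.5, 671 and 628 in controls. By limma, Max did not pass without midkine 5 (log2 fold change 0.33, adjusted p = 0.0514), nor with all 6 libraries (0.63, adjusted p = 0.232). By edgeR without midkine 5 it was higher (adjusted p = 0.0396). Mxd3 fell without midkine 5 (log2 fold change −0.95, adjusted p = 0.00701, limma), against −0.85 with all 6 libraries (adjusted p = 0.137). Mycl fell without midkine 5 (−1.18, adjusted p = 0.00349, limma), against −0.79 with all 6 libraries (adjusted p = 0.293), where midkine 5 lay within the control range. The lowest library held 26 reads for Mxd3 and 21 for Mycl. Mnt rose without midkine 5 (0.58, adjusted p = 0.00329, limma), against 0.22 with all 6 libraries (adjusted p = 0.684), where midkine 5, at 167 normalized counts, lay below the controls. Mxd1 passed in neither fit. Whether these genes have a part in the levels of the 47 was not tested.

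Markers of dividing cells and of cell types were counted in the same way. With all 6 libraries limma called 0 genes of any of these lists. The counts that follow are without midkine 5, where 8.52% of all genes were called lower and 9.92% higher, and the summed levels are over all 6 libraries. Limma called 12 of 20 proliferation genes lower and 0 higher, and their summed level was 17220 to 20103 normalized counts in midkine libraries, against 25593 to 26996 in controls. In midkine 5 the median difference of the proliferation genes was 0.12 on the log2 scale, with 10 of the 20 above all controls and 8 below, while their median was −0.36 in midkine 3 and −0.40 in midkine 4. Of 10 conventional DC genes 8 were lower and 0 higher (summed level 5442 to 6136 in midkine libraries, against 7974 to 8654 in controls), and of 10 stem and progenitor genes 2 were lower and 1 higher (2255 to 2759, against 2509 to 2829). Of 11 neutrophil genes 7 were higher and 0 lower (177290 to 190390 in midkine libraries, against 124080 to 138010 in controls), and of 11 monocyte and macrophage genes 7 were higher and 2 lower (22422 to 25690, against 18591 to 19849). Of 8 B cell genes 7 were higher (1404 to 2962 in midkine libraries, against 1340 to 1877 in controls), and of 7 basophil, mast cell and eosinophil genes 6 were higher (1735 to 2692, against 975.4 to 1208). In midkine 5 itself, 3 of the 8 B cell genes lay above all controls and 3 below. Of the 11 monocyte and macrophage genes, 6 lay above all controls there and 5 below, against 41.8% and 41.1% of all genes. Of 7 plasmacytoid DC genes 2 were lower (3642 to 4121 in midkine libraries, against 4734 to 5591 in controls), and of 6 stroma and endothelium genes 4 were lower (797 to 1535, against 1270 to 1606). The erythroid list had 1 of 4 tested genes higher (110 to 176 in midkine libraries, against 45.1 to 77.9 in controls) and the T and NK cell list 1 of 3 (72.6 to 187, against 104 to 129). Klk1, Lepr and Klrb1c were at 0 in at least 1 library. The part of cell make-up and division in the levels of the ribosome biogenesis factors was not tested.

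The last 300 nt of 10 of the 47 genes overlap an exon of another gene on the opposite strand. The kit marks strand, but the strand setting of the counting is not given in the sources used here, so the reads of such pairs cannot be told apart with certainty. Mpp1, which overlaps Dkc1, had 590, 632 and 311 normalized counts in midkine 3, 4 and 5, against 394, 412 and 413 in control 1, 2 and 4. It rose without midkine 5 (log2 fold change 0.59, adjusted p = 0.0009, limma), where Dkc1 fell, and its value was 0.26 with all 6 libraries (adjusted p = 0.586). Idh3b, which overlaps Nop56, had 233, 259 and 336 normalized counts in midkine libraries, against 229, 239 and 220 in controls. Srr, which overlaps Tsr1, had 81.2, 91.8 and 71.7 normalized counts in midkine libraries, against 60.5, 67.5 and 73.0 in controls. Of these partners of called genes, none fell in either fit. The other 7 pairs were Mybbp1a with Spns2, Nhp2 with Rmnd5b, Tbl3 with Noxo1, Bysl with Ccnd3, Bop1 with Mroh1, Noc2l with Samd11 and Gnl2 with Dnali1.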

How the data were processed

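The authors deposited, for each gene symbol and library, a signal described as normalized counts. Per the submitters' processing notes, the tools were DESeq2, HTSeq, TopHat2 2.0.10 with Bowtie 1.0.0, FastQC 0.11.0 and SAMtools 0.1.19, and the build was GRCm38 (mm10). For the gene annotation, the strand setting and any gene filter, the sources used here give nothing. The labels' protocols name the QuantSeq 3′ (FWD) kit, which reads near the poly(A) tail. Dividing each deposited value by its library's smallest value above 0 gave whole numbers for 100% of values (tolerance 0.01 reads), taken as reads. A floor of 3 reads was at most 5.01e-05% of a library, which covers the counting error alone, as the labels name no molecular identifiers.

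limma 3.58.1 (R 4.3.3, lmFit and eBayes with trend) was fitted on log2(normalized count + 1) over the 13543 genes with a mean of at least 5. Tests were two-sided, Benjamini-Hochberg adjusted over all these genes, with a threshold of 0.05. Fold changes on this scale understate the change of low genes. Recovered reads were also tested with edgeR 4.0.16 and DESeq2 1.42.0. The limma and edgeR fits, but not the other alternatives, were also run on simulated counts with known changes. Alternatives changed the pseudocount, filter, scaling, weights and libraries. The removal of GC trends by loess and edgeR without midkine 5 were added after the data were seen.

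The 47 genes and all lists were chosen with earlier results of these data known. All 47 could be named. Full values were for the 3 with the highest mean and, in each role, the 2 of smallest p in each direction; other values shown were chosen after they were seen. Of the pathway and MYC lists, the 6 of smallest p were named, and Ncl and Mnt were added after their values were seen. Of 15443 symbols, 15353 matched 1 gene of GENCODE M21. Promoters came from RefSeq tables. Figures used matplotlib 3.10.9.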

Additional observations from a re-analysis of the deposited data

How the results depend on the processing

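No paired analysis was possible because the midkine and control libraries share only replicate number 4. The number of the 47 genes called lower was 0 in the main limma test and with 2 other pseudocounts, no filter, TMM scaling, edgeR and the GC trend removed, but 2 with DESeq2, 23 with array weights (48.9%, against 18.4% of all genes, and 0 higher, against 19.1%) and 8 with edgeR without midkine 5. Leaving out 1 library at a time it ranged from 0 to 9, where 9 is without midkine 5 (limma array weights gave that library the lowest weight, 0.0967). The weight was 0.727 for midkine 3 and 4.36, the highest, for midkine 4. The 23 calls with array weights therefore rest mostly on midkine 4 within the midkine group. The number called higher was 0 in all of these settings. The number lower without overlap was 16 with TMM scaling and 18 with the GC trend removed (against 15.6% of all genes). It ranged from 17 to 29 with 1 library left out (29 without midkine 5, where 23.8% of all genes were). The number higher ranged from 1 to 4 (4 without midkine 3, 2 without control 4). For TMM scaling, and for each left-out library other than midkine 5, the share of all genes is not given. Those counts cannot be read alone. The median log2 fold change of the 47 genes ranged from −0.264 to −0.160 with 1 library left out, and that of the 87 further genes from −0.158 to −0.106. Over all 15 alternatives, 27 of the 47 genes kept a negative fold change and 4 (Gar1, Imp4, Nob1 and Nip7) a positive one. The other 16 changed sign in at least 1 of them. With 1 library left out, their log2 fold changes ranged from −0.105 to 0.253 for Bysl, −0.102 to 0.338 for Ebna1bp2, −0.302 to 0.0276 for Gnl2, −0.0455 to 0.602 for Heatr1, −0.219 to 0.534 for Mrto4, −0.304 to 0.127 for Nhp2, −0.209 to 0.449 for Noc4l, −0.0621 to 0.484 for Nop10, −0.231 to 0.163 for Nop16, −0.0022 to 0.135 for Polr1a, −0.913 to 0.196 for Polr1b, −0.292 to 0.578 for Polr1c, −0.0515 to 0.322 for Pwp2, −0.446 to 0.203 for Rrp1b, −0.291 to 0.0073 for Rrp9 and −0.338 to 0.469 for Tbl3. Leaving out midkine 5 gave the lower end for each of these except Gnl2, where it gave the upper end. With array weights the fold change was reversed for Bysl (−0.292), Ebna1bp2 (−0.113), Gnl2 (0.0358), Mrto4 (−0.386), Noc4l (−0.288), Nop10 (−0.0587), Nop16 (−0.147), Polr1a (−0.0211), Polr1c (−0.191), Pwp2 (−0.0599) and Tbl3 (−0.424). With edgeR without midkine 5 it was reversed for Bysl (−0.0797), Ebna1bp2 (−0.0932), Gnl2 (0.0289), Heatr1 (−0.0513), Mrto4 (−0.204), Noc4l (−0.203), Nop10 (−0.0646), Nop16 (−0.235), Polr1c (−0.292), Pwp2 (−0.0451) and Tbl3 (−0.330). With all 6 libraries, edgeR and DESeq2 gave 0.0778 and 0.0793 for Polr1b and 0.0981 and 0.105 for Rrp1b, and removing the GC trend gave −0.0415 for Nop16. The cause of these shifts was not tested. Low counts limit Polr1b, whose lowest library held 22 reads, and Mxd3 and Mycl of the MYC network.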
